A study of Mus musculus with 15 samples.

Results

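The genes described are the 10 members of the insulin-like growth factor (IGF) family that were chosen by symbol: the ligands Igf1 and Igf2, the receptors Igf1r and Igf2r, and the binding proteins Igfbp2 to Igfbp7. All 10 were found among the 41591 genes in the count table, and all 10 were among the 19388 genes with enough counts to be tested. They were read in whole epididymis RNA from 15 mice aged 7 weeks, 5 wild type for Plag1 (WT), 5 heterozygous (HET) and 5 knockout (KO), with 1 library per animal, named here by genotype and animal number. The strain label of every animal reads Brown Swiss, and the labels do not say how the Plag1 allele was disrupted or whether the loss is limited to a cell type. P-values therefore measure the spread between these individual mice, all of 1 age and 1 label of strain.

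IGF1 and IGF2 are small secreted hormones related to insulin, and both signal through the IGF1 receptor, a tyrosine kinase that feeds the PI3K and AKT pathway. The IGF2 receptor carries IGF2 to lysosomes for breakdown, and the binding proteins hold IGFs in tissue fluid and matrix, where proteases release them. PLAG1, the zinc finger transcription factor whose gene was knocked out, is known as a regulator of IGF2. The epididymis is the coiled duct in which sperm mature, a tall epithelium of principal, basal and clear cells wrapped in smooth muscle, connective tissue and vessels.

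In GRCm38.p6 the ligand genes are Igf1 (NCBI Gene 16000, chr10:87858265-87937047, plus strand) and Igf2 (16002, chr7:142650768-142666816, minus). The receptor genes are Igf1r (16001, chr7:67952257-68233668, plus) and Igf2r (16004, chr17:12682406-12769706, minus). The binding protein genes are Igfbp2 (16008, chr1:72824480-72852474, plus), Igfbp3 (16009, chr11:7206086-7215498, minus), Igfbp4 (16010, chr11:99040005-99052655, plus), Igfbp5 (16011, chr1:72858065-72874865, minus), Igfbp6 (16012, chr15:102144186-102149512, plus) and Igfbp7 (29817, chr5:77349240-77408045, minus). All 10 are protein-coding, and counts cover all exons of a gene.

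The libraries held 20.3 to 42 M counts. Levels are counts scaled to library totals (CPM, as edgeR gives them, on library sizes scaled by edgeR's TMM factors). The 10 principal cell marker genes summed to 54300 to 62700 CPM in WT, 55900 to 67600 in HET and 45400 to 65200 in KO. KO-695, KO-696 and KO-739 (45400, 53500 and 52300 CPM) lay below all WT libraries. KO-694 (55800 CPM) lay inside the WT range and KO-738 (65200 CPM) above it. Of these 10 genes 0 was called between any genotypes. Plag1 itself was 12.7 ± 0.870 CPM (SD, n = 5) in WT, 10.2 ± 1.38 in HET and 8.33 ± 0.973 in KO, with the 5 KO libraries at 7.0 to 9.38 CPM and the 5 WT libraries at 12 to 14.0 CPM. Reads from exons left intact in the knockout check nothing. KO-738 and HET-693 had the highest shares of ribosomal RNA genes, 0.199% and 0.193% of counts against at most 0.123% elsewhere. Among the KO libraries KO-738 was the lowest for 7 of the 10 members and lay far from the other 4 for Igf1, and KO-739 held 4620 CPM of 8 skeletal muscle markers against at most 104 CPM in the other libraries. All 5 WT animals carry numbers above 700, whereas 3 KO animals (KO-694 to KO-696) and 2 HET animals (HET-692 and HET-693) carry lower ones. The labels do not say what the numbers mean.

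Of the 10 members, 4 rose in KO against WT and 0 fell at an adjusted p under 0.05 (edgeR quasi-likelihood test, Benjamini-Hochberg over all 19388 genes, two-sided). They were the ligand Igf1 and the binding proteins Igfbp3, Igfbp4 and Igfbp7. Over all genes tested 6.0% were called in this comparison, 4.40% higher and 1.60% lower. The median log2 fold change was 0.478 over the 10 members, 7 of them positive, against -0.012 over all genes, 46.8% of them positive. The same 4 members were also called, all higher, in KO against HET, where 1.97% of all genes were called 1.61% higher and 0.351% lower. That comparison shares the KO libraries with the first, so the 2 are not independent. The count of 4 against HET was 0 without HET-693, HET-715, HET-718, HET-735 or KO-696, 1 without KO-695, 2 without KO-739 and 7 without KO-738. It was 4 without HET-692, and 3, with Igfbp3 lost, without KO-694 or any 1 WT library. Of these 15 fits, Igf1 kept its call against HET in 10, Igfbp4 in 9, Igfbp7 in 8 and Igfbp3 in 2. Against WT the count of members was 3 to 7 in the same fits, with 7 without KO-738. The count over all genes moved as well, from 0 to 2443 against HET and from 318 to 2923 against WT. The differences against HET stayed positive in all 15 fits, at 0.83 to 1.04 for Igf1 and 0.48 to 0.62 for Igfbp4. They were 0.34 to 0.49 for Igfbp7 and 0.33 to 0.50 for Igfbp3. In HET against WT, edgeR called 0 members and 0 genes (percent called 0), with 854 genes at an unadjusted p under 0.05, and DESeq2 called 1 gene that was no member. The median over the members was -0.058 there, with 4 of 10 positive, against 52.8% of all genes.

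**Figure D1:**
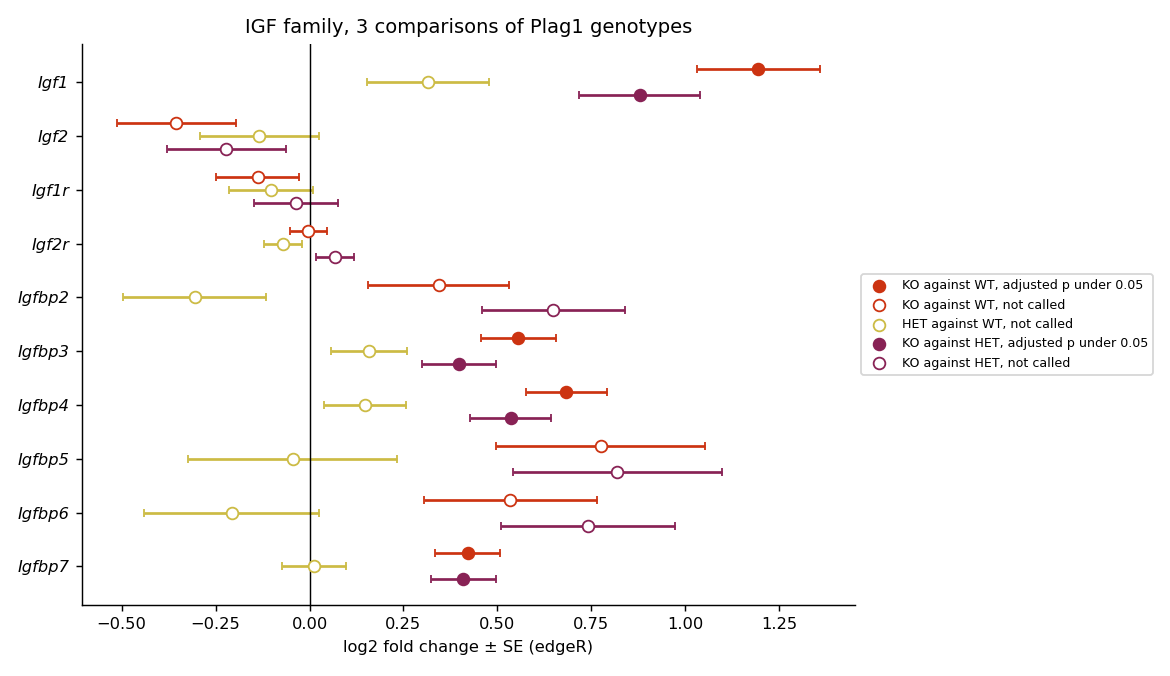
Log2 fold changes of the 10 IGF members (rows) in each pairwise comparison of genotypes, with bars of 1 SE from the edgeR fit of 15 libraries and filled symbols where the adjusted p was under 0.05. Igf1, Igfbp3, Igfbp4 and Igfbp7 are filled in KO against WT and in KO against HET, and no member is filled in HET against WT.

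Igf1 was the member with the largest increase. It lay at 22.1, 28.8, 25.6, 27.9 and 23.6 CPM in WT-709, WT-719, WT-720, WT-723 and WT-726, and at 34.5, 33.0, 30.9, 26.2 and 34.7 CPM in HET-692, HET-693, HET-715, HET-718 and HET-735. In KO-694, KO-695, KO-696 and KO-739 it lay at 65.8, 68.9, 60.5 and 65.2 CPM, and in KO-738 at 32.5 CPM. Every KO library lay above every WT library, but KO-738 lay among the HET libraries, and 4 of 5 HET libraries lay above the highest WT value. The KO mean of 58.6 ± 14.9 CPM was 229% of the WT mean of 25.6 ± 2.83 CPM, and the HET mean was 31.9 ± 3.52 CPM. Igf1 rose by 1.19 ± 0.16 (SE) on the log2 scale in KO against WT (edgeR adjusted p = 0.00335) and by 0.88 ± 0.16 in KO against HET (adjusted p = 0.0225). Without KO-738 the first difference was 1.35 ± 0.09, the upper end of 1.13 to 1.35 over the 15 fits that each left out 1 library. HET exceeded WT by 0.32 ± 0.16, which did not pass (edgeR adjusted p = 0.981). Against the mean of the WT and KO log2 values, HET stood at -0.28 ± 0.14 (adjusted p = 0.657).

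The Igf1 difference was smaller in the fits that used the animal number range. With the range as a term in the fit, Igf1 was 1.01 ± 0.18 higher in KO against WT (edgeR adjusted p = 0.0239). Among animals numbered 700 and above (5 WT, 3 HET and 2 KO) the difference was 0.94 ± 0.22 and did not pass (edgeR adjusted p = 0.1335), and 0 genes of any kind passed in that smaller fit. Its 2 KO animals are KO-738, at 32.5 CPM of Igf1, and KO-739, at 65.2 CPM. The part of KO-738 and that of the number range in the smaller difference were not tested.

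Igf2, the fetal growth hormone gene that is expressed from the paternal copy, was lower in most KO libraries but was not called. Its WT values were 16.6, 15, 18.3, 17.9 and 14.8 CPM in the order of animals given for Igf1, and its HET values were 15.8, 13.0, 16.6, 15.4 and 14.5 CPM. The values 10.6, 9.52 and 10.1 CPM of KO-694 to KO-696 lay below every WT and HET library, while KO-738 and KO-739 at 17.4 and 17.1 CPM lay inside the WT range. The 3 low libraries are the 3 KO animals numbered below 700. The difference of KO from WT was -0.35 ± 0.16 (edgeR adjusted p = 0.186). Without KO-738 it was -0.48 ± 0.15 and passed (edgeR adjusted p = 0.0395), the 1 call in the 15 fits that each left out 1 library. Among animals numbered 700 and above it was 0.06 ± 0.11. With the number range as a term it was -0.13 ± 0.13 (adjusted p = 0.650). By limma voom with quality weights, on all 15 libraries, it was -0.56 ± 0.13 and passed (adjusted p = 0.0141). The 2 HET animals numbered below 700, at 15.8 and 13.0 CPM, lay above those 3 KO animals.

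The KO against WT difference was positive for Igf1 and negative, but not called, for Igf2. The mean of their ratio was higher in KO, with KO and WT ranges that overlapped. Per kilobase of exon, Igf1 was 0.902 ± 0.131 times Igf2 in WT, 1.23 ± 0.205 times in HET and 2.90 ± 1.25 times in KO. The KO values ran from 1.08 in KO-738 to 4.18, and 4 of 5 KO libraries lay above all WT libraries. Summed per kilobase, the 2 ligands were 5.47 ± 0.419 CPM in WT and 8.18 ± 1.20 CPM in KO, with ranges apart.

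Promoter sequences were searched because the study varied the dose of a DNA-binding factor known to act on Igf2. The motif was the PLAG1 consensus, a GC-rich core followed after a short gap by a run of G, read on both strands in the 250 bases before each RefSeq start site. It was found in 5 of the 14 windows of the 10 members, in Igf2, Igf1r, Igf2r, Igfbp2 and Igfbp4, and in 16.8% of all 32851 RefSeq windows of that length. The consensus can coincide with the GC box GGGCGG, which was found in 6 member windows and in 32.7% of all windows, and 4 member windows held both. The Igf2 window with a match precedes the start site numbered 4 in the RefSeq table (GRCm38.p6, chr7:142657497-142657746, minus strand), printed 5′ to 3′ with the PLAG1 match in capitals, which overlaps GGGCGG.
Igf2, start 4: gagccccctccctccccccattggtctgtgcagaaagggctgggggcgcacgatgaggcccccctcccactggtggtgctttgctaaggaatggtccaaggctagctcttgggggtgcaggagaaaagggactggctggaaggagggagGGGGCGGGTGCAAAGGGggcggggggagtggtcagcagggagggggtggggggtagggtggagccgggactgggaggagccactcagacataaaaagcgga
The single Igf1 window in the table (chr10:87860861-87861110) held neither motif. It lies inside the gene, wholly in annotated exons, and the region before the gene start printed here was not searched. A match is a description of letters, and no match says only that the letters are absent from the window.

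**Figure D2:**
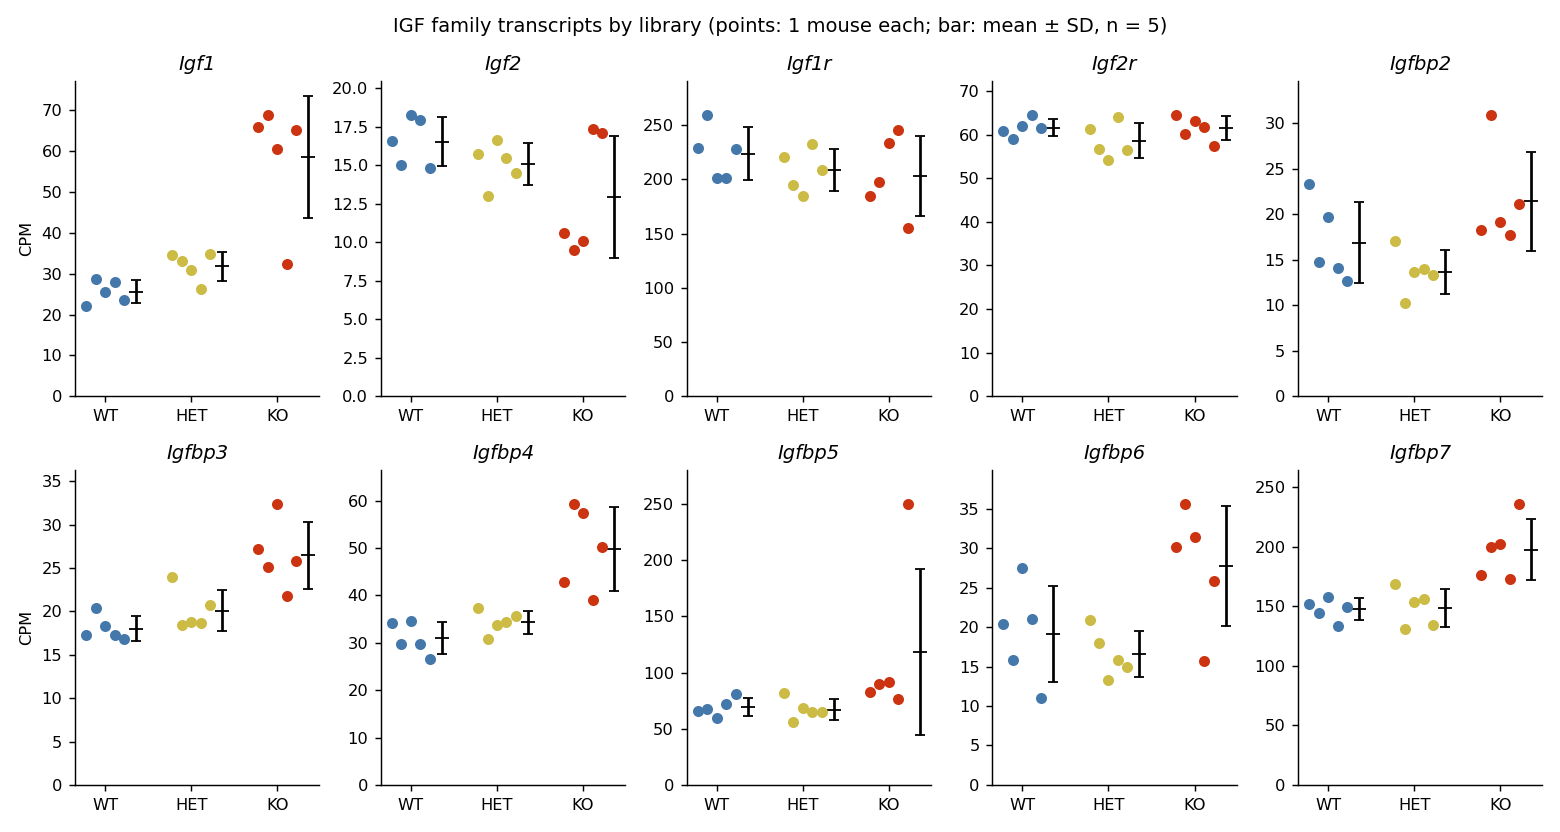
CPM of each of the 10 IGF members in every library (points), by genotype, with the mean and bars of 1 SD (n = 5). Igf1, Igfbp3, Igfbp4 and Igfbp7 have all 5 KO points above all 5 WT points, and single KO libraries stand apart for Igf1 (KO-738 at 32.5 CPM) and Igfbp5 (KO-739 at 250.4 CPM).

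Neither receptor differed beyond the spread between mice. Igf1r, the signalling receptor of both ligands, lay at 229, 260, 201, 201 and 228 CPM in WT, at 221, 195, 185, 233 and 209 CPM in HET and at 185, 198, 233, 246 and 155 CPM in KO (animals in ascending number in each genotype). The 3 ranges overlapped, and 3 of 5 KO libraries lay below all WT libraries. The difference of KO from WT was -0.14 ± 0.11 (edgeR adjusted p = 0.495). Igf2r, the maternally expressed clearance receptor, had the smallest WT spread of the family relative to its mean. It lay at 60.9, 59.0, 61.9, 64.4 and 61.5 CPM in WT, at 61.4, 56.7, 54.3, 64.1 and 56.6 CPM in HET and at 64.6, 60.1, 63.2, 61.7 and 57.5 CPM in KO. Its KO mean was 99.8% of the WT mean, and the log2 difference was -0.0032 with an SE of 0.05 (edgeR adjusted p = 0.979) and turned to 0.0243 with upper quartile scaling. The antisense RNA Airn, which overlaps Igf2r on the other strand, had 30 to 67 counts against 1176 to 2736 for Igf2r, and without a stated strand setting the reads of the 2 cannot be told apart.

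Of the 6 binding protein genes, Igfbp3, Igfbp4 and Igfbp7 rose in KO against WT and Igfbp2, Igfbp5 and Igfbp6 did not pass. Over all genes tested 4.40% rose in this comparison. All 6 differences were positive and ran from 0.34 to 0.77 on the log2 scale, where 46.8% of all genes tested were positive. Igfbp3 encodes the main carrier of IGFs in blood. It lay at 17.3, 20.4, 18.4, 17.3 and 16.8 CPM in WT, at 24, 18.5, 18.7, 18.7 and 20.7 CPM in HET and at 27.2, 25.1, 32.5, 21.8 and 25.8 CPM in KO. All KO libraries lay above all WT libraries, with KO-738 the lowest of them at 21.8 CPM and inside the HET range. Igfbp3 rose by 0.56 ± 0.10 in KO against WT (edgeR adjusted p = 0.00645) and by 0.40 ± 0.10 in KO against HET (adjusted p = 0.0498). The call against HET was lost in 13 of the 15 fits that each left out 1 library, with adjusted p from 0.00604 to 0.132. With the animal number range as a term, its KO against WT difference of 0.44 ± 0.10 did not pass (edgeR adjusted p = 0.0643).

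Igfbp4 encodes a binding protein that inhibits IGF action and is cut by the pappalysin that Pappa encodes. Its values were 34.3, 29.8, 34.5, 29.7 and 26.6 CPM in WT, 37.3, 30.7, 33.7, 34.3 and 35.7 CPM in HET and 42.8, 59.4, 57.3, 39.0 and 50.3 CPM in KO. The KO range lay apart from both others, and KO-738 at 39.0 CPM was again its lowest library. Igfbp4 rose by 0.68 ± 0.11 in KO against WT (edgeR adjusted p = 0.00423) and by 0.54 ± 0.11 in KO against HET (adjusted p = 0.0257). With the number range as a term the first difference was 0.61 ± 0.13 and passed (edgeR adjusted p = 0.0381).

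Igfbp7 encodes a secreted protein of vessel walls and matrix with low affinity for IGFs. It lay at 152, 145, 158, 134 and 150 CPM in WT, at 169, 131, 154, 156 and 135 CPM in HET and at 176, 200, 202, 173 and 237 CPM in KO. Its KO libraries lay above all WT and HET libraries, with KO-738 the lowest and KO-739 the highest. Igfbp7 rose by 0.42 ± 0.09 in KO against WT (edgeR adjusted p = 0.0138) and by 0.41 ± 0.09 in KO against HET (adjusted p = 0.0291). The call against WT was lost without WT-723 (edgeR adjusted p = 0.0523), without KO-696 (adjusted p = 0.0502) and with the number range as a term (0.44 ± 0.10, adjusted p = 0.0542). The 3' end of Igfbp7 overlaps that of Polr2b on the other strand, and Polr2b had 1950 to 3784 counts against 2878 to 8748 for Igfbp7.

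Counting non-overlap alone, 4 of the 10 members had every KO library above every WT library, against 2.84% of all genes tested, and 0 had every KO library below (1.37% of all genes). For KO above HET the count was 3 of 10, namely Igfbp2, Igfbp4 and Igfbp7, against 2.18% of all genes. No member lay wholly below HET in KO (1.41% of all genes). In HET and WT the ranges of all 10 members overlapped, and over all genes 0.717% lay above WT and 0.325% below without overlap. Across the 4 called members the lowest KO library was KO-738 for Igf1, Igfbp3, Igfbp4 and Igfbp7 alike.

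The 3 called binding proteins had unlike promoter windows, shown here because these genes rose together. The Igfbp4 window (GRCm38.p6, chr11:99040994-99041243, plus strand) held 1 PLAG1 match, on the minus strand and in capitals, that overlaps no GGGCGG. The window of Igfbp3 (chr11:7213924-7214173, minus strand) held neither motif, and that of Igfbp7 (chr5:77408046-77408295, minus strand) held 4 copies of GGGCGG and no PLAG1 match. Like the Igf1 window, those of Igfbp4 and Igfbp3 lie inside the genes as printed here. The regions before the printed starts of these genes were not searched.
Igfbp4: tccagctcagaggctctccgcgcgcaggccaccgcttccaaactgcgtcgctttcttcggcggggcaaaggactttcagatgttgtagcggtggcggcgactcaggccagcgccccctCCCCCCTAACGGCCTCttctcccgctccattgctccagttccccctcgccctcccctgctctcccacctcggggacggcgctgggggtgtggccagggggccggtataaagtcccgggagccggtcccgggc
Igfbp3: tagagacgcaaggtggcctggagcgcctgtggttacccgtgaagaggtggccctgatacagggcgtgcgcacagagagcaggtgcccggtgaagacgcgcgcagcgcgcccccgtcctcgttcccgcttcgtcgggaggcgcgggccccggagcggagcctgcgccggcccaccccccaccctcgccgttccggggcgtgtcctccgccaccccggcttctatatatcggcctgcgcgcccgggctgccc
Igfbp7: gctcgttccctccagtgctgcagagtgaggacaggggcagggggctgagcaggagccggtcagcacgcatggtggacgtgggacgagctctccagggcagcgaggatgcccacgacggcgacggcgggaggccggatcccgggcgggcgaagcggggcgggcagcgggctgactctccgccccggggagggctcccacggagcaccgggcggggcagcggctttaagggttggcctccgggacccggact
All sequences are from RefSeq, 5′ to 3′ on the strand of the gene. Among members with a PLAG1 match, Igfbp4 rose in KO, while Igf2, Igf1r, Igf2r and Igfbp2 were not called.

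The other 3 binding protein genes were more variable between mice. Igfbp5 encodes a matrix-bound protein of connective tissue and muscle. It lay at 66.0, 67.4, 59.7, 71.8 and 80.9 CPM in WT, at 81.3, 55.9, 68.4, 65.0 and 64.5 CPM in HET and at 83.1, 89.4, 91.9, 76.8 and 250.4 CPM in KO. KO-739 held 250.4 CPM, and 4 of 5 KO libraries lay above all WT libraries. Its difference of 0.77 ± 0.28 in KO against WT did not pass (edgeR adjusted p = 0.109), and without KO-739 the difference was 0.30 ± 0.10 (adjusted p = 0.0865). KO-739 is the library with 4620 CPM of skeletal muscle markers, and it also held 38.1 CPM of the imprinted RNA H19 against at most 6.21 CPM elsewhere. The part of the muscle signal in its Igfbp5 level was not tested.

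Igfbp2, whose gene lies 5590 bases from Igfbp5 in a tail-to-tail pair, encodes a binding protein of fluids and epithelia. It lay at 23.3, 14.7, 19.7, 14.0 and 12.6 CPM in WT, at 17.1, 10.3, 13.7, 14.0 and 13.3 CPM in HET and at 18.2, 30.9, 19.2, 17.8 and 21.1 CPM in KO. The KO range lay above the HET range but overlapped the WT range, and KO-695 was the highest library. Igfbp2 differed by 0.34 ± 0.19 in KO against WT (edgeR adjusted p = 0.291) and by 0.65 ± 0.19 in KO against HET (adjusted p = 0.0802). Igfbp6 encodes a binding protein that prefers IGF2. Its values were 20.3, 15.8, 27.4, 21.0 and 11.1 CPM in WT, 20.9, 18, 13.3, 15.8 and 14.9 CPM in HET and 30.2, 35.7, 31.4, 15.7 and 25.8 CPM in KO. The 3 KO animals numbered below 700 lay above all WT libraries, and KO-738 and KO-739 lay in the WT range. The difference of KO from WT was 0.53 ± 0.23 (edgeR adjusted p = 0.175), 0.19 ± 0.23 with the number range as a term and 0.12 ± 0.32 among animals numbered 700 and above. Without KO-738, Igfbp5 at 0.90 ± 0.28 and Igfbp6 at 0.68 ± 0.21 passed (edgeR adjusted p = 0.0486 and 0.0416), so 6 members were called higher and Igf2 lower. Igfbp5 and Igfbp6 each passed in only 1 of the 15 fits that each left out 1 library.

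Levels were compared between members per kilobase of exon, since longer transcripts yield more counts. In WT, Igfbp7 stood far above the rest at 122 ± 7.63 CPM per kb (SD, n = 5). Igfbp6 at 17.2 ± 5.51, Igf1r at 13.3 ± 1.44, Igfbp5 at 11.5 ± 1.31, Igfbp2 at 9.14 ± 2.42, Igfbp4 at 7.02 ± 0.759, Igf2r at 6.61 ± 0.210 and Igfbp3 at 5.76 ± 0.466 CPM per kb followed. Igf2 at 2.89 ± 0.280 and Igf1 at 2.59 ± 0.286 CPM per kb were the lowest. Between neighbours in this order the WT ranges were apart only for Igfbp7 and Igfbp6 and for Igfbp3 and Igf2.

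**Figure D3:**
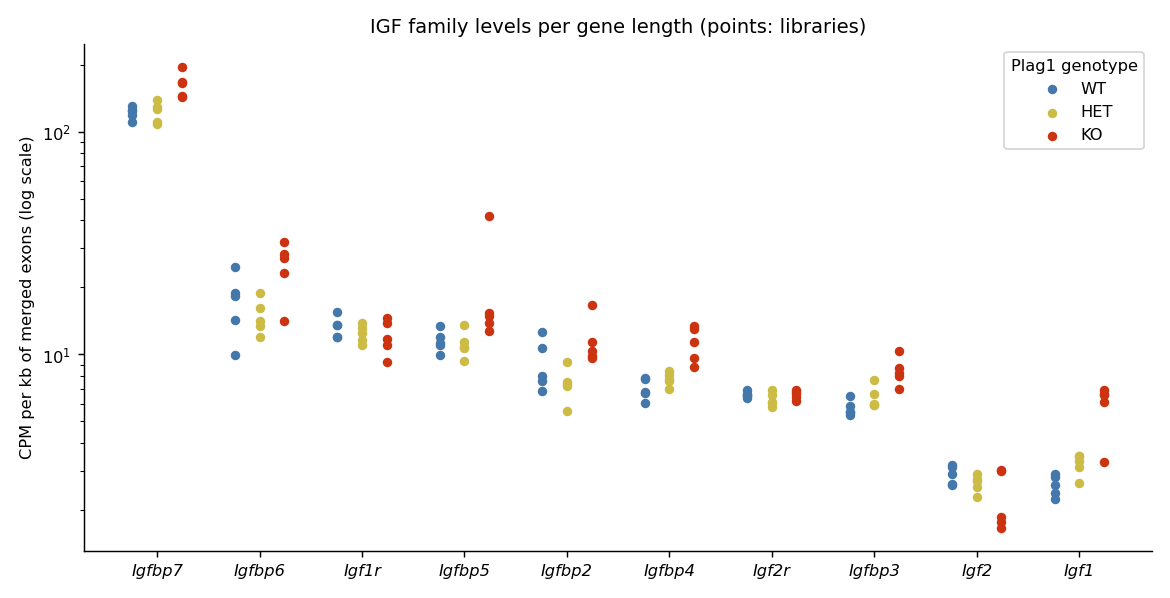
Levels of the 10 IGF members in CPM per kilobase of merged exon (log axis), in every library (points) by genotype, in the order of the WT means. Igfbp7 is highest at 122 CPM per kb in WT, and Igf2 and Igf1 are lowest at 2.89 and 2.59 CPM per kb.

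The binding protein genes summed to 173 ± 12.1 CPM per kb in WT and 239 ± 36.8 in KO, with ranges apart. Igfbp7 made up 70.7% ± 2.63 of that sum in WT and 68.5% ± 2.78 in KO, and its share lay below all WT libraries in 4 of 5 KO libraries. For every 100 units of binding protein RNA per kb there were 3.18 ± 0.339 of ligand RNA in WT, 3.45 ± 0.338 in HET and 3.43 ± 0.310 in KO, and these ranges overlapped. Ligand and binding protein sums were thus both higher in KO, and their ratio differed by less than the spread between mice.

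Markers of other cell types moved in the same libraries. Over all genes tested 4.40% rose in KO against WT, the share to set beside each count of markers here. The marker lists were chosen with earlier results of these data known. The 10 fibroblast markers summed to 1620 to 2030 CPM in WT, 1790 to 2190 in HET and 1980 to 3530 in KO, and 7 of 10 rose in KO against WT. KO-738 held the lowest KO sum, 1980 CPM, inside the WT range. Of 10 endothelial markers 8 rose (146 to 177 CPM in WT, 152 to 198 in HET and 217 to 289 in KO), and of 10 macrophage markers 7 rose (105 to 129, 124 to 142 and 128 to 218 CPM). Smooth muscle markers (0 of 8 rose), basal cell markers (0 of 6) and clear cell markers (0 of 5 tested) were not called. Germ cell markers rose for 4 of 10, mesothelial markers for 3 of 6 and fat cell markers for 1 of 8. No marker was at 0 in all libraries. In RNA from whole tissue, more cells of a type and more RNA per cell cannot be told apart, and the part of these cell types in the IGF differences was not tested.

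Members were also set against the fibroblast marker sum of their own library. That sum itself ran from 1620 to 2030 CPM in WT and from 1980 to 3530 in KO. A gene with equal CPM in both genotypes can therefore have a lower ratio in KO. Igf1 was 1.45 ± 0.161 CPM per 100 CPM of fibroblast markers in WT, 1.62 ± 0.222 in HET and 1.98 ± 0.340 in KO. Its ratio lay above all WT libraries in 4 of 5 KO libraries. Igfbp4 at 1.75 ± 0.170 in WT and 1.71 ± 0.237 in KO, and Igfbp3 at 1.02 ± 0.0724 and 0.918 ± 0.146, overlapped between those genotypes. Igfbp7, at 8.36 ± 0.735 in WT and 6.85 ± 1.11 in KO, lay below all WT libraries in 4 of 5 KO libraries. Igf2 at 0.934 ± 0.0913 and 0.471 ± 0.240, Igf1r at 12.7 ± 1.80 and 7.35 ± 2.99 and Igf2r at 3.49 ± 0.345 and 2.18 ± 0.592 did so as well. The KO mean CPM of Igf1r and Igf2r were 90.8% and 99.8% of their WT means. What these ratios owe to the marker sum was not tested. In KO-738 the Igf1 ratio was 1.64 and the Igf2 ratio 0.878, both within the WT ranges.

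**Figure D4:**
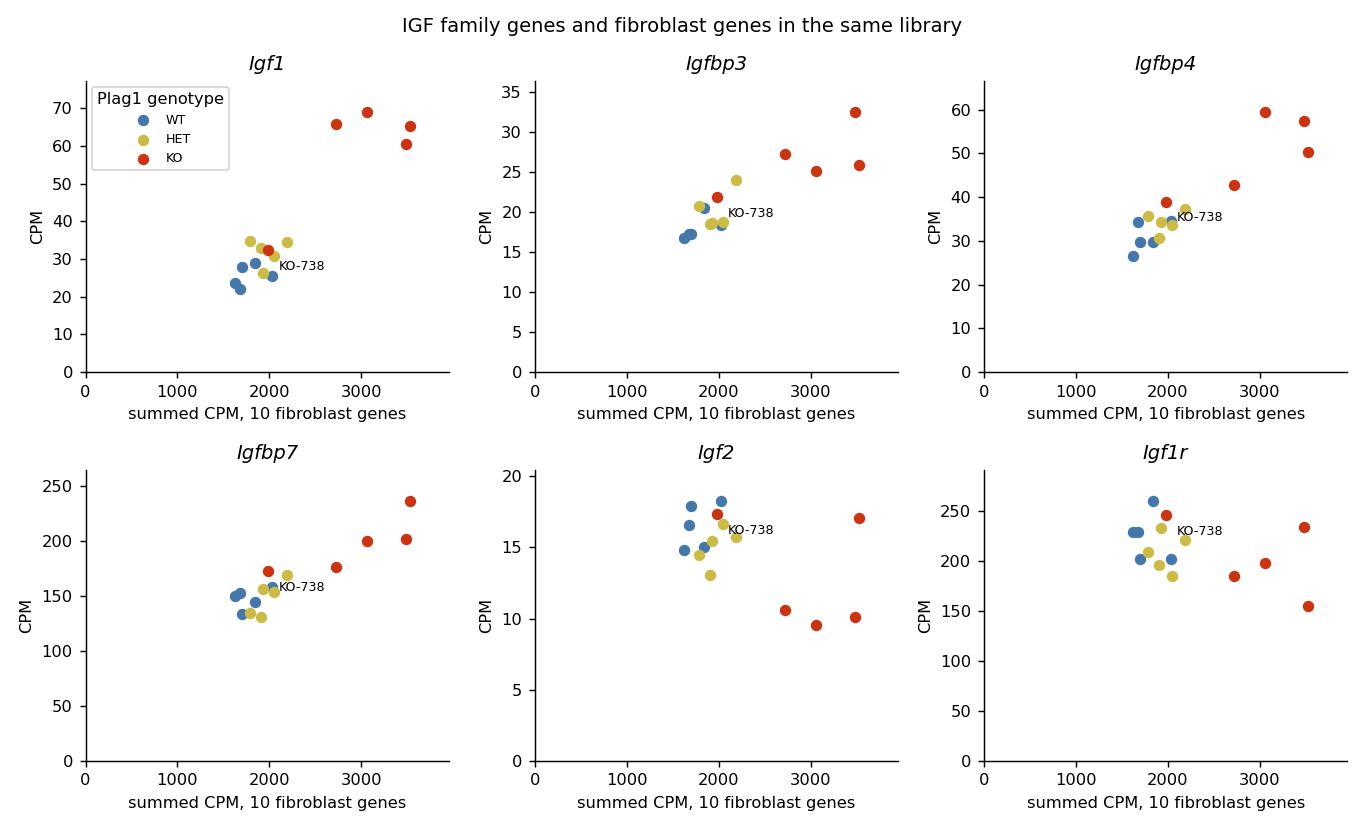
CPM of the 4 IGF members that rose in KO (Igf1, Igfbp3, Igfbp4 and Igfbp7), and of Igf2 and Igf1r, which were not called. Each is set against the summed CPM of 10 fibroblast marker genes, 1 point per library and coloured by genotype. KO-738, at 1980 CPM of fibroblast markers, lies beside the WT and HET libraries, and the other 4 KO libraries lie at 2720 to 3530 CPM.

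The genes whose levels across the 15 libraries were most like each called member were found by the root mean square difference of log2 CPM, each gene centred on its own mean. For Igf1, which itself varied by 0.552 about its mean on this measure, they were the complement gene C7 (0.183), the transferrin gene Trf (0.186) and the tendon transcription factor gene Mkx (0.205). For Igfbp3 (0.272) they were Rassf2 (0.108), Cpxm2 (0.109) and Crispld2 (0.109), and for Igfbp4 (0.332) Slco2b1 (0.101), the collagen-processing gene Pcolce (0.114) and Mxra8 (0.116). For Igfbp7 (0.234) they were Rhoj (0.079) and the basement membrane genes Nid1 (0.079) and Lamb1 (0.081). The 4 lists of 3 genes had no gene in common. All 12 genes were called higher in KO against WT, which the choice by likeness to a called member largely fixes.

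Around the 10 members, 59 other genes of IGF supply and signalling were followed in 6 lists, and 54 of them were tested. The lists were chosen with earlier results of these data known, so their counts beside the background are descriptions only. In KO against WT 10 rose and 3 fell, with a median of 0.025, against the background of 6.0% called. In KO against HET 4 rose and 0 fell (background 1.97%), and in HET against WT edgeR called 0. Without HET-693 and KO-738 the KO against WT counts were 12 higher and 4 lower. That fit called 2722 genes over all, against 1163 in the main fit. With the animal number range as a term only Htra1 was called, and among animals numbered 700 and above 0 were. Those fits called 176 and 0 genes over all. The total of 13 was 6 without WT-709, WT-719 or WT-723 and 4 without KO-696.

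The list drawn up for proteases of IGF binding proteins and their inhibitors held the largest number of these calls. Whether each listed protease cuts a binding protein in this tissue was not tested. The list of 10 held 4 called higher and 1 called lower, against 4.40% and 1.60% of all genes tested, and its median difference was 0.355. It was chosen with earlier results of these data known, so these counts describe the list and test nothing. Htra1, a secreted serine protease that cuts IGFBP5, rose by 0.52 ± 0.07 (edgeR adjusted p = 0.00343). It lay at 34.3 to 40.9 CPM in WT, 35.9 to 43.1 in HET and 45.3 to 60.4 in KO, with ranges apart. Mmp2, a gelatinase, rose by 0.91 ± 0.16, from 14.2 ± 1.21 CPM in WT to 26.8 ± 6.86 in KO (KO-738 16.4), and by 1.05 ± 0.13 without KO-738. Over the 15 fits that each left out 1 library its difference ran from 0.83 to 1.05. Adam12, a membrane protease, rose by 1.10 ± 0.24, from 1.23 ± 0.285 CPM to 2.62 ± 0.667, and Prss23, a serine protease, by 0.54 ± 0.14. Htra1, Mmp2 and Adam12 were also called higher in KO against HET, by 0.44, 0.88 and 1.14.

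Pappa2, the pappalysin that cuts IGFBP3 and IGFBP5 and so frees IGF, was the 1 gene of this list that fell. It lay at 4.73, 5.62, 4.40, 4.57 and 5.06 CPM in WT and at 3.77, 3.91, 3.53, 3.90 and 3.66 CPM in HET. In KO-694, KO-695, KO-696 and KO-739 it lay at 1.28, 1.4, 2.08 and 1.91 CPM, and in KO-738 at 4.55 CPM. All HET libraries lay below all WT libraries, and 4 KO libraries lay below both, while KO-738 overlapped WT. Pappa2 fell by 1.11 ± 0.26 on the log2 scale in KO against WT (edgeR adjusted p = 0.0238), and by 1.53 ± 0.14 without KO-738. Over the 15 fits that each left out 1 library its difference ran from -1.53 to -0.97, and 12 of them kept the call. The HET against WT difference of -0.38 ± 0.25 did not pass (adjusted p = 0.981). The other pappalysin, Pappa, was 0.19 ± 0.17 higher in KO and was not called. The 2 most abundant genes of the list were Adam28 at 2201 CPM in WT, with a difference of 0.02 ± 0.19, and the pappalysin inhibitor gene Stc1 at 49.5 CPM, with -0.28 ± 0.13, and neither was called.

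Of 5 carriers and related binding proteins, 3 were tested and 2 rose in KO against WT, where 4.40% of all genes tested rose. Vtn, which encodes the matrix protein vitronectin, rose by 0.78 ± 0.17, and Htra3, a protease with an IGF-binding-like domain, by 0.87 ± 0.20. Igfbp1, whose gene neighbours Igfbp3 at 3539 bases, had 0.443 ± 0.141 CPM in WT and was 0.49 ± 0.37 higher in KO without passing. Igfals, which encodes the partner of IGFBP3 in blood, and Igfbpl1 were too low to test, at 0.116 and 0.0408 CPM in WT.

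Genes downstream of the receptors were called at about the share of all genes tested (6.0%). Of 12 insulin receptor relatives and adaptors 1 rose, the imprinted adaptor gene Grb10, by 0.48 ± 0.11 (edgeR adjusted p = 0.0192), from 17.6 ± 0.927 CPM in WT to 24.5 ± 4.59 in KO. The insulin receptor gene Insr at 93.3 CPM (-0.09 ± 0.05) and the adaptor gene Shc1 at 87.5 CPM (-0.07 ± 0.04) were not called. Of 20 genes of PI3K, AKT, mTOR and FOXO signalling 1 rose, with a list median of -0.014. This was Foxo1, a transcription factor that AKT keeps out of the nucleus, by 0.20 ± 0.05 (25.8 ± 1.53 CPM in WT, 29.7 ± 1.36 in KO). Pik3r1, the regulatory subunit gene of PI3K, at 134.5 CPM (0.14 ± 0.05) and the kinase gene Gsk3b at 118.9 CPM (0.03 ± 0.05) were not called.

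Growth hormone acts on tissues through its receptor, JAK2 and STAT5, and Igf1 is a known STAT5 target. Of the 6 genes of this route 2 fell and 1 rose in KO against WT, with a median of -0.182. Over all genes tested 1.60% fell and 4.40% rose. Stat5a lay at 62.3 to 73.6 CPM in WT, 56.8 to 63.8 in HET and 37.4 to 62.7 in KO, and fell by 0.50 ± 0.11 (edgeR adjusted p = 0.0225). Its highest KO library was KO-738 at 62.7 CPM, and the other 4 were at 37.4 to 53.3 CPM, below all WT and HET libraries. Without KO-738 Stat5a fell by 0.60 ± 0.10. Over the 15 fits that each left out 1 library its difference ran from -0.60 to -0.42, and 11 of them kept the call. Jak2, the receptor's kinase, fell by 0.26 ± 0.07 (edgeR adjusted p = 0.0388), and Socs2, the feedback inhibitor of this receptor, rose by 0.36 ± 0.10 (adjusted p = 0.0425), from 12.3 ± 0.702 to 15.8 ± 2.32 CPM. The receptor gene Ghr at 20.4 CPM in WT (0.29 ± 0.12) and Stat5b at 43.7 CPM (-0.15 ± 0.06) were not called. The KO against WT calls of Jak2 and Socs2 were kept in 7 and 5 of the 15 fits that each left out 1 library.

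Of the 6 genes of the Igf2 locus and of IGF2 mRNA-binding proteins, 3 were tested. Igf2bp2, which encodes an RNA-binding protein of IGF2 mRNA, rose by 1.06 ± 0.20 in KO against WT (edgeR adjusted p = 0.00844) and by 0.83 ± 0.20 in KO against HET (adjusted p = 0.0404). It lay at 1.72 to 2.58 CPM in WT, 2.21 to 2.91 in HET and 5.02 to 5.46 in 4 KO libraries, while KO-738 held 2.32 CPM. Without KO-738 the difference from WT was 1.23 ± 0.13, the upper end of 0.97 to 1.23 over the 15 fits that each left out 1 library. H19, the maternally expressed neighbour of Igf2, differed by 1.29 ± 0.56 without passing (edgeR adjusted p = 0.177), with 4.32 to 6.21 CPM in the KO libraries other than KO-739. Without KO-739 its difference was 0.03 ± 0.14 (edgeR adjusted p = 0.922). Igf2bp3 at 1.82 CPM differed by 0.32 ± 0.19. Ins2, the insulin gene beside Igf2, was at 0 in every library.

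**Figure D5:**
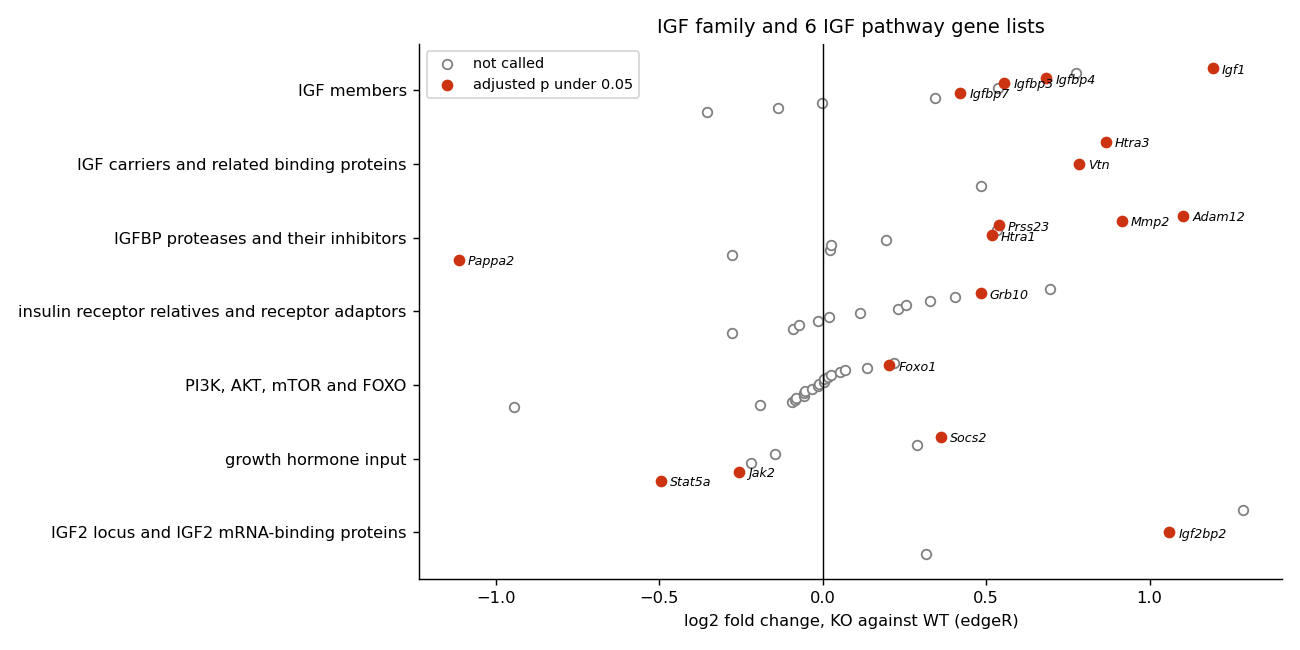
Log2 fold changes in KO against WT of the 10 IGF members (top row) and of the tested genes of 6 IGF pathway lists (1 row each; height within a row only separates points), with called genes named and filled. Called genes are most numerous among the IGFBP proteases and their inhibitors (5 of 10), against 1 of 20 PI3K, AKT, mTOR and FOXO genes and 6.0% of all genes tested. The lists were chosen with earlier results of these data known.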

How the data were processed

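Messenger RNA libraries of 15 whole epididymides were deposited as 1 table of raw counts per NCBI Gene ID. Per the submitters' processing notes, the authors ran FastQC, aligned with HISAT2 2.0.5 to GRCm38.p6 and counted with featureCounts (Subread 1.4.6p5). The annotation release and the strand setting are not given in the sources used here, so overlapping and antisense genes are uncertain. Of 41591 IDs, 40290 (96.9%) were named through RefSeq's gene table of GRCm38.p6, which also gave the coordinates and promoter windows. Exon lengths are merged GENCODE exons of the same build.

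The deposited counts entered edgeR 4.0.16 (R 4.3.3) with filterByExpr, TMM factors and its robust quasi-likelihood test, 1 model covering the 3 genotypes and leaving 12 residual degrees of freedom. P-values were adjusted over 19388 genes, with a threshold of 0.05, and the biological coefficient of variation was 16.3%. Libraries held 20.3 to 42 M counts, and each member had at least 271 counts in a library. Counting noise of the members is thus small beside this coefficient, which is shared over all genes tested. It need not be small beside the spread of a steady member such as Igf2r (61.5 ± 1.95 CPM in WT). CPM use TMM library sizes, and SE are those of the fit. Alternatives used DESeq2 1.42.0, limma 3.58.1 voom, other scalings and filters, the 2 genotypes compared, the animal number range, and each library left out. Python 3.11.15 with pandas 2.3.3 and matplotlib 3.10.9 made the plots.

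The 10 members, the 6 pathway lists (carriers, proteases and their inhibitors, receptor adaptors, PI3K to FOXO, growth hormone input, Igf2 locus) and the marker lists (also fat cell, skeletal muscle and germ cell) were chosen with earlier results of these data known. Named beside the members are list genes called in any pairwise comparison, up to 2 more per list with the highest CPM, and the 3 genes most like each called member. Pappa was named, and the alternatives for list genes were added, after values were seen.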

Additional observations from a re-analysis of the deposited data

Results flagged for a closer look

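In 3 of 30 sets of 5 libraries (10 members in 3 genotypes) 1 library lay far from the other 4 by Dixon's criterion (critical value 0.71), which chance alone reaches in about 1 of 20 sets. All 3 were in KO. KO-738 held the lowest Igf1, 32.46 CPM against 60.5 to 68.9 CPM in the other 4, and the gap was 0.769 of the whole range. KO-695 held the highest Igfbp2, 30.92 CPM against 17.8 to 21.1 CPM (0.748 of the range), and this library also had the highest fat cell marker sum, 283 CPM. KO-739 held the highest Igfbp5, 250.4 CPM against 76.8 to 91.9 CPM (0.913 of the range), beside 4620 CPM of skeletal muscle markers. The part of those markers in the levels was not tested.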

How the results depend on the processing

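The limits are 5 mice per genotype, a KO group with KO-738 apart for Igf1, and an animal number range that separates 3 KO mice from all WT mice. Over 1394 alternative values for single genes, 1205 kept direction and side of the threshold, 132 lost the call, 13 gained it and 44 changed sign. The 1394 include genes not called in the main fit, such as all members in HET against WT and against the midpoint. Those could not lose a call, so the 132 come only from genes called in the main fit, a smaller base than 1394. The cause of these changes was not tested. The 3 other scalings and the 2 other filters on low counts kept the 4 members called in KO against WT.

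Genes called in KO against WT (1163) numbered 1930 by DESeq2, 287 in a fit of the 2 genotypes, 176 with the number range as a term, 0 among animals numbered 700 and above, and 2722 without HET-693 and KO-738 (an alternative chosen after seeing the data). Members called (4) numbered 2 with the term and 0 among the higher numbers, and list genes called (13) numbered 4 with the 2 genotypes, 1 with the term and 0 among the higher numbers. In KO against HET, genes called (381) numbered 1242 by DESeq2, 1952 by limma voom, 1660 without HET-693 and KO-738, and 0 both with the 2 genotypes and among the higher numbers. Members called (4) were 0 in the last 2 settings. List genes called (4) numbered 8 by DESeq2, 11 by voom, 11 without HET-693 and KO-738 and 0 in those same 2 settings. DESeq2 called 1 gene in HET against WT and 25 against the midpoint of WT and KO, and voom 1 against the midpoint, where edgeR called 0 (1522 at an unadjusted p under 0.05).

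Leaving out 1 library at a time, genes called ran from 318 to 2923 in KO against WT and from 0 to 2443 in KO against HET, members called from 3 to 7 and from 0 to 7, and list genes called from 4 to 18 and from 0 to 14. Members called in KO against HET were 0 without HET-693, HET-715, HET-718, HET-735 or KO-696, 1 without KO-695, 2 without KO-739 and 7 without KO-738.

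Sign changes touched values that were not called. Igf2r in KO against WT was 0.0243 with upper quartile factors, 0.0058 without the 20 most abundant genes, 0.0051 with no filter, 0.0069 with at least 1 CPM in 5 libraries, 0.0190 by voom and 0.0055 with the 2 genotypes. Igfbp7 in HET against WT was -0.0120 by voom, -0.0076 with the 2 genotypes and -0.0160 among the higher numbers. Igf2 was 0.0502 in HET against WT with the number term and, among the higher numbers, 0.0603 in KO against WT, 0.1743 in KO against HET and -0.1441 against the midpoint. Igfbp5 in HET against WT was 0.1437 with the term and 0.0099 without HET-693 and KO-738, where Igf1r was 0.0213 against the midpoint. With each library left out, the values that changed sign ran from -0.0187 to 0.0195 (Igf2r, KO against WT), -0.1454 to 0.0098 (Igfbp5, HET against WT), -0.0599 to 0.0497 (Igfbp7, HET against WT), -0.1023 to 0.0475 (Igf1r, KO against HET), -0.0214 to 0.1043 (Igf2, midpoint) and -0.0846 to 0.0004 (Igf1r, midpoint).

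No paired analysis was run because the labels give no pairing of animals between genotypes. A fit of the 2 genotypes alone was not run for the midpoint, which needs all 3.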
